A study of Mus musculus with 4 samples.

Results

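The 10 genes described here encode transcription factors of the primitive streak and the early mesoderm: Mixl1, Eomes, Gsc, Lhx1, Mesp1, Mesp2, Tbx6, Msgn1, Evx1 and Cdx1. They were chosen by name, and all 10 were found among the 19083 genes that the array names, on 21 of its 45214 features (a feature is 1 spot with 1 probe). Of the 10 genes, 8 were read by 1 feature, Mesp1 by 2 and Lhx1 by 11. The series compared mouse embryonic stem (ES) cells in which Fmr1, the gene of the RNA-binding protein FMRP, was silenced with ES cells that received a control hairpin. One population (shFmr1) carried 1 short hairpin RNA that targets Fmr1 in exon 1, the other (shCT) a random hairpin. Both hairpins came from a lentivirus that also encodes GFP, and both populations were sorted by flow cytometry and kept as mixtures rather than clones. Each of 4 Agilent 2-colour arrays, replicates 1 to 4, set 0.2 µg of shFmr1 RNA against 0.2 µg of shCT RNA, with an RNA integrity number of 9 for each. The shFmr1 RNA was in Cy5 on replicates 1 and 3 and in Cy3 on replicates 2 and 4.

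The primitive streak forms at the posterior side of the epiblast at gastrulation, and cells that pass through it become mesoderm and definitive endoderm. Nodal, Wnt, BMP and FGF signals induce it, and the factors described here are among the genes those signals switch on. Undifferentiated ES cells are known to carry little of these transcripts, which rise when the cells leave pluripotency or in the few cells that do so in culture.

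Each value is the log2 of the shFmr1 signal over the shCT signal, so that 0 means equal signal and -1 means that shFmr1 had 1 part for every 2 in shCT. Neither the log base nor the direction is stated. Log2 is an assumption, since the values speak against log10 alone, and natural logs remain possible. The direction is likely rather than certain, and rests on Fmr1 being negative whichever dye the shFmr1 RNA carried. Fmr1 read -0.86, -1.65, -1.34 and -1.61 in replicate order, with a mean of -1.37 ± 0.36 (SD, n = 4; limma adjusted p = 0.156). Since Fmr1 fixed the direction, it is no independent check of the labels. Ratios carry no level, so neither the presence of the streak transcripts nor the ES cell identity could be checked, and a gene near background in both RNAs can also read near 0. In RNA from whole populations, fewer cells of a kind and less transcript per cell cannot be told apart. No label ties the replicates to separate cultures. The p-values thus cover the spread among these 4 samples alone, possibly a technical one, and the number of arrays limits the precision.

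For none of the 10 factors could a difference between shFmr1 and shCT cells be told from the spread of the arrays. Of the 10 factors, 0 passed adjusted p of 0.05 in limma's test over all genes, where the share of all genes called was 0.0%. Fmr1, the silenced gene, did not pass either (limma adjusted p = 0.156), so missing this threshold does not show an absence of change. At an unadjusted p under 0.05 there were also 0 of 10, against 3.77% of all genes. The limma adjusted p of the factors ran from 0.973 to 0.999. The mean was positive for 7 and negative for 3 (50.5% of all genes were negative), and the median of the 10 means was 0.022, beside -0.0013 for all genes. In 9 of 10 the mean was smaller in size than the SD over the arrays, which held for 88.3% of all genes.

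None of the 10 kept its sign on all 4 arrays, which 11.3% of all genes did (5.88% negative throughout and 5.37% positive). The list did not lean one way on each array either. Its median was 0.044 in replicate 1, -0.092 in replicate 2, -0.0041 in replicate 3 and -0.036 in replicate 4, with 7, 2, 5 and 4 of the 10 factors above 0. Of the 40 values, 36 were under 0.5 in size. The other 4 were Eomes and Gsc in replicate 1 and Evx1 in replicates 3 and 4.

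The intervals show what size of change in the signal ratio these arrays leave possible. For a gene near background in both RNAs they set no limit on a change in its transcript. All 10 of the 95% confidence intervals held 0. Without Evx1, the lowest bound was -0.36 and the highest 0.51. In each of the other 9 factors, a signal ratio changed by more than 1.29-fold down or 1.43-fold up thus lay outside its interval. These limits trade places if the ratios run the other way, and the order below reverses. Read as natural logs the limits would be 1.44-fold and 1.67-fold. Evx1 was far less well measured, with an interval from -1.58 to 0.47. From low to high the means ran Evx1, Mesp2, Mesp1, Mixl1, Lhx1, Msgn1, Cdx1, Tbx6, Eomes and Gsc. All 10 intervals shared the stretch from -0.17 to 0.12, and differences between the factors were not tested.

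**Figure D1:**
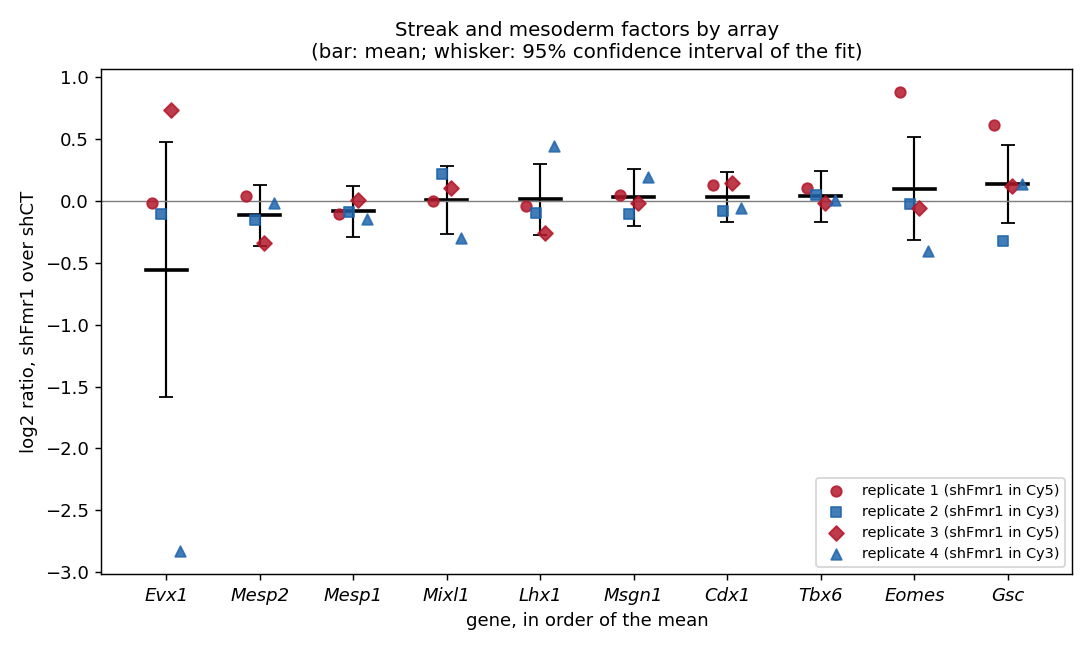
Log2 ratio of shFmr1 over shCT (vertical axis) for the 10 streak and mesoderm factors in order of the mean. Points are the 4 arrays, red with shFmr1 in Cy5 and blue with shFmr1 in Cy3, bars are means and whiskers the 95% confidence intervals of the limma fit. All intervals include 0, and Evx1 in replicate 4, at -2.83, lies far below every other point.

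Mixl1, Eomes, Gsc and Lhx1 act earliest, in the streak itself. Mixl1, a paired-type homeobox gene of the streak, read 0.0013, 0.22, 0.10 and -0.30 in replicate order. Its values lay on both sides of 0, and the mean was 0.0062 ± 0.22 (SD, n = 4), with an interval from -0.27 to 0.28 (limma adjusted p = 0.999).

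Eomes, a T-box gene needed for mesoderm to leave the streak and for definitive endoderm, read 0.89, -0.023, -0.056 and -0.41. It was high on replicate 1 alone and low on replicate 4. The mean of 0.0998 ± 0.55 had an interval from -0.31 to 0.51 (limma adjusted p = 0.982). The direction of Eomes rested on replicate 1: without it the fitted ratio was -0.14. Without replicate 3, where replicate 1 stood alone in its dye orientation, the ratio was 0.34, with an unadjusted limma p of 0.0476, under 0.05 as in 4.78% of all genes in that fit, and an adjusted p of 0.961. Fitted with no dye term on the same 3 arrays, Eomes was at 0.15.

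Gsc, the homeobox gene goosecoid of the anterior streak and organizer, read 0.62, -0.32, 0.12 and 0.13. It was the highest of the 10 by mean, at 0.14 ± 0.38, yet replicate 2 lay below 0 and the interval ran from -0.17 to 0.45 (limma adjusted p = 0.973). Eomes and Gsc shared their highest array, replicate 1, but not their lowest, which was replicate 4 for Eomes and replicate 2 for Gsc.

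Lhx1, a LIM homeobox gene of the anterior streak and its mesendoderm, read -0.036, -0.098, -0.26 and 0.45 as the mean of its features. Replicate 4 alone was positive, and the mean over arrays was 0.014 ± 0.30 (SD, n = 4; limma adjusted p = 0.998). Lhx1 is the only one of these genes with enough features to see how far the spots of 1 gene differed. Probe sequences were not available, so different probes could not be told from repeat spots of the same probe. Of its 11 features, 10 were annotated with the same RefSeq transcript. Their means over the arrays ran from -0.47 to 0.63, with 6 positive and 5 negative, and no feature had an unadjusted limma p under 0.05 (lowest 0.0706).

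A pair of single spots moved the Lhx1 values on replicates 3 and 4. On replicate 4 the sixth feature read 3.32 and the next highest 0.87, and without that spot the mean of the features was 0.16 instead of 0.45. On replicate 3 the fourth feature read -2.16 and the next lowest -0.57, and without that spot the mean was -0.065 instead of -0.26. The sixth feature read -0.40, -0.071 and -0.33 on replicates 1 to 3, so its high value stood on 1 array only. With the median over features in place of the mean, Lhx1 turned from 0.014 to -0.082.

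**Figure D2:**
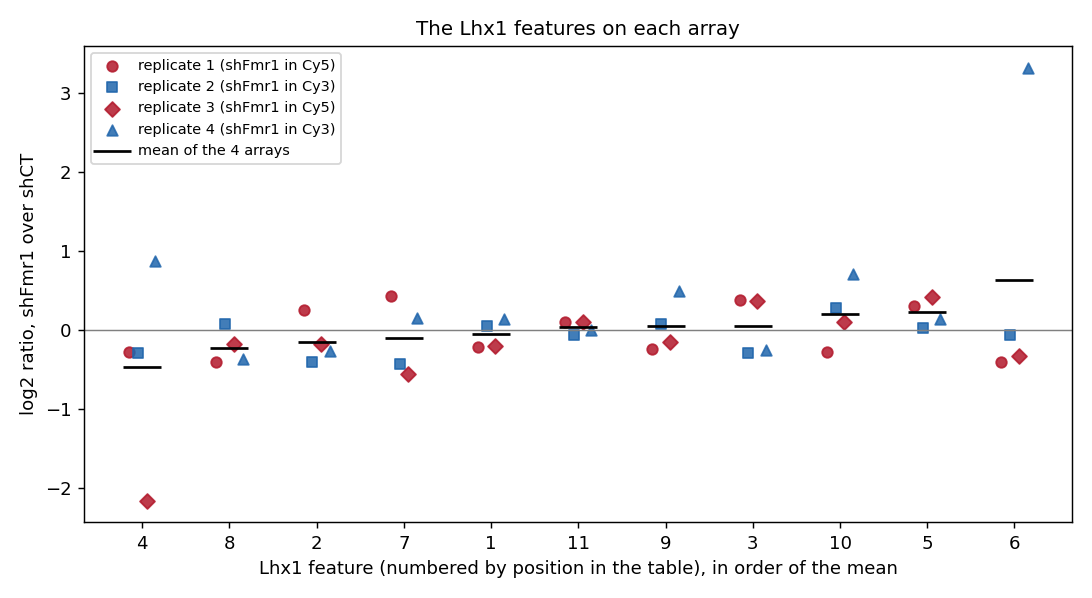
Log2 ratio of shFmr1 over shCT (vertical axis) for each of the 11 Lhx1 features, numbered by their place in the table and ordered by mean (black bars). Points are the 4 arrays, coloured by dye orientation; the value of 3.32 on replicate 4 and that of -2.16 on replicate 3 stand apart from the other features.

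Mesp1 and Mesp2 encode bHLH factors of nascent mesoderm. Mesp1 marks the first cells to leave the streak, among them cardiac progenitors, and Mesp2 sets segment borders in the presomitic mesoderm. The genes are next to each other in the RefSeq gene order of GRCm38.p6. Mesp1 read -0.10, -0.087, 0.0059 and -0.14, and was thus below 0 on 3 arrays and close to 0 on replicate 3. Its mean was -0.082 ± 0.063 (SD, n = 4), the only mean of the 10 that exceeded its SD in size, with an interval from -0.29 to 0.12 (limma adjusted p = 0.973). Flipping the signs of its 4 values in an exact permutation test gave a two-sided p of 0.25, where 4 arrays cannot go below 0.125.

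The Mesp1 value is a mean of 2 features that disagreed. The first read -0.34, -0.093, -0.030 and 0.065, and the second 0.14, -0.081, 0.042 and -0.35. They had opposite signs on replicates 1, 3 and 4, and their means were -0.10 and -0.063. Mesp2 read 0.042, -0.15, -0.34 and -0.017, lowest on replicate 3, where Mesp1 was highest. The Mesp2 mean was -0.12 ± 0.17, with an interval from -0.36 to 0.13 (limma adjusted p = 0.973).

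Eomes and Tbx6 are T-box proteins, and the T-box half-site CACACCT was searched on both strands of the promoter windows, from 250 bases before to 50 after each annotated start (RefSeq, GRCm38.p6). Windows were given for 8 of the 10 genes, and 3 of these held the letters, beside 5.84% of all 32851 windows. The stretches around the matches are shown because both Mesp genes and Evx1, the factor whose mean ratio lay farthest from 0, hold them. That Evx1 mean rested on replicate 4, at -2.83, and without this array the fitted ratio was 0.13. A link between the matches and the ratios was not tested. The half-site is in capitals, each stretch reads along its gene's strand, and all 3 matches lie on that strand.
Evx1: gagcgaggccCACACCTggcgcatcac
Mesp1: gggcccgcttCACACCTagggctcagg
Mesp2: ggtcagaatcCACACCTctgcaaatgg

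The Evx1 stretch is chr6:52313449-52313475 (plus strand), and its half-site begins 39 bases before the annotated start. The Mesp1 stretch is chr7:79793568-79793594 (minus strand), with the half-site beginning at base 7 after the start. The Mesp2 stretch is chr7:79810745-79810771 (plus strand), with the half-site beginning at base 29 after the start. In Mesp2 it overlaps AATCCACA, a match to the FOXH1 motif AATNNACA, which 12.2% of all windows and 1 of the 8 held. The Smad palindrome GTCTAGAC was in 0 of the 8 windows and in 0.213% of all. These matches describe letters only, and the array has no measure of binding.

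Tbx6 and Msgn1 act next, in the paraxial mesoderm. Tbx6 encodes a T-box factor that turns progenitors toward paraxial mesoderm and away from a neural fate, and Msgn1 a bHLH factor of the presomitic mesoderm. Tbx6 read 0.11, 0.052, -0.015 and 0.012, the narrowest range of the 10 factors, with all arrays close to 0. Its mean was 0.038 ± 0.053 (SD, n = 4) and its interval ran from -0.17 to 0.24 (limma adjusted p = 0.982). The SD lay at percentile 2.06 of all genes. Msgn1 read 0.046, -0.11, -0.014 and 0.19, on both sides of 0, with a mean of 0.030 ± 0.13 and an interval from -0.199 to 0.26 (limma adjusted p = 0.988).

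Evx1 and Cdx1 belong to the posterior streak. Evx1 encodes an even-skipped type homeobox factor that is strong in the posterior streak, and Cdx1 a caudal-type homeobox factor that takes part in setting Hox expression along the body axis. Cdx1 read 0.13, -0.079, 0.15 and -0.055. It was above 0 on both arrays with shFmr1 in Cy5 and below 0 on both with shFmr1 in Cy3. Its mean was 0.036 ± 0.12 (SD, n = 4), with an interval from -0.17 to 0.24 (limma adjusted p = 0.984), and its dye effect had an unadjusted limma p of 0.257.

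Evx1 read -0.012, -0.10, 0.73 and -2.83. One array, replicate 4, was far below the rest, replicate 3 was above 0, and the other arrays were near 0. The mean was -0.55 ± 1.56, the largest in size of the 10, with a limma adjusted p of 0.973, and its SD lay at percentile 99.7 of all genes. Without replicate 4 the fitted ratio turned to 0.13 (limma adjusted p = 1.00). Evx1 was read by a single feature, so no other probe could be set beside the low value.

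Evx1 and Cdx1 were the 2 of the 10 factors whose values in the 2 dye orientations did not overlap, as in 39.2% of all genes. The dye effect had an unadjusted limma p under 0.05 in 0 of the 10, against 6.49% of all genes. The genes whose 4 values lay nearest to those of Evx1, by Euclidean distance over the arrays, were 1700086D15Rik (0.494), Cyb561d2 (0.567) and Fam124b (0.688), each with 1 feature. On replicate 4 they read -2.96, -2.63 and -2.56, and on each of the other arrays between -0.14 and 0.33.

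The factors differed far more in spread than in mean. The SD over the arrays ran from 0.053 for Tbx6 to 1.56 for Evx1 with a median of 0.19, beside 0.21 for all genes. Eomes lay at percentile 95.5 of SD and Gsc at 87.2, while Mesp1 lay at 3.42. Of the 84 values on the 21 features, 3 were beyond 2 in size (3.57%), beside 0.541% of all values on the array. These were Evx1 and 1 Lhx1 feature on replicate 4, with opposite signs, and 1 Lhx1 feature on replicate 3.

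**Figure D3:**
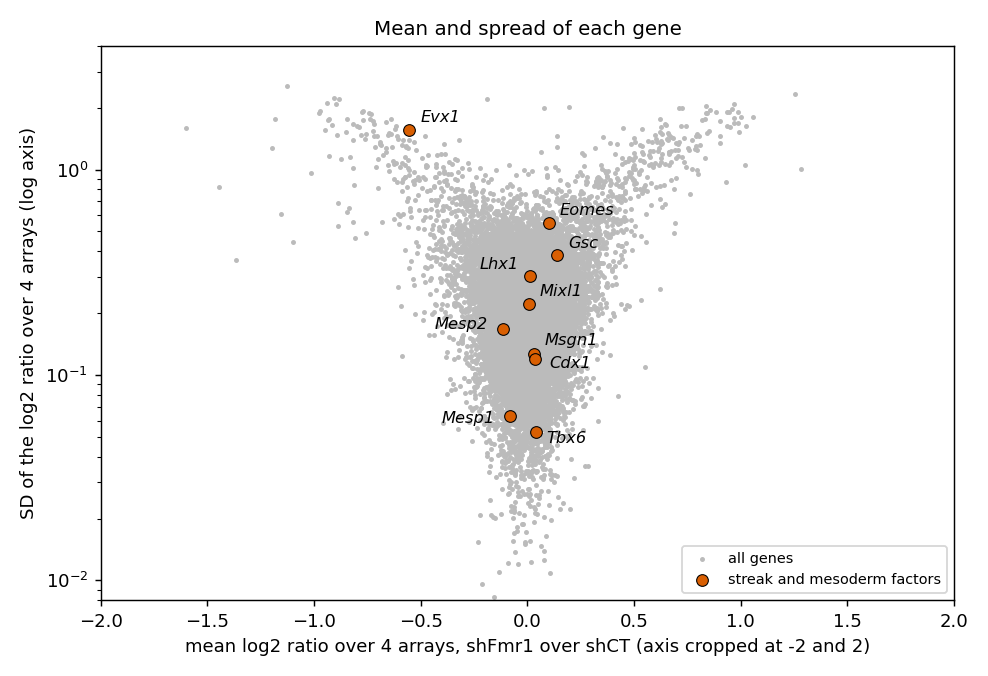
Mean log2 ratio of shFmr1 over shCT (horizontal axis) against the SD over the 4 arrays (vertical log axis), with all genes in grey and the 10 factors in orange. Of the factors, 9 have means between -0.12 and 0.14 with SDs from 0.053 to 0.55, and Evx1 lies on the left arm at a mean of -0.55 and an SD of 1.56.

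Genes that act around the streak factors were described by role: ligands, receptors and cofactors, effectors, inhibitors, other factors of streak and mesoderm, and mesoderm surface and signalling genes. Of 81 such genes listed, 75 were measured. The 2 genes of each role with the lowest p-values were named by rule, a choice that favours genes with 1 sign on all arrays. Of the 75, 10 were negative on all 4 arrays and 1 was positive on all 4, beside 5.88% and 5.37% of all genes. In limma's test 0 of the 75 passed adjusted p of 0.05. At an unadjusted p under 0.05, 8 were lower and 1 higher, where 2.05% of all genes were lower and 1.71% higher. The lists were chosen with earlier results of these data known, so these counts are no test against those shares. The median of the 75 was -0.031, with 48 negative, where 50.5% of all genes were. The number lower went from 8 to 4 without replicate 2 with the dye term kept, where 2.22% of all genes were lower, and also to 4 without replicate 3 and without a dye term, where 1.83% were. With 1 feature per gene it was 10, beside 2.12% of all genes.

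Of the 10 ligands measured, 8 had negative means, where 50.5% of all genes did. At an unadjusted limma p under 0.05, 2 were lower, where 2.05% of all genes were. The median of the ligands was -0.077, beside 0.022 for the factors they induce, a difference that was not tested. Wnt3, the Wnt ligand required for streak formation, read -0.21, -0.34, -0.47 and -0.73, below 0 on all 4 arrays. The mean was -0.43 ± 0.22 (SD, n = 4; limma adjusted p = 0.973). Fgf8, the FGF of the streak, read 0.057, -0.78, -0.42 and -0.42, below 0 on 3 arrays, with a mean of -0.39 ± 0.34 (limma adjusted p = 0.973).

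Among receptors and cofactors 0 of 11 had an unadjusted limma p under 0.05, where 3.77% of all genes did. Their means lay between -0.095 for Acvr2b, an activin receptor, and 0.040. Fgfr1, the FGF receptor of the streak, averaged -0.062 ± 0.17 (n = 4). Among effectors there were 0 of 10, with Tcf7l2, a nuclear partner of beta-catenin, at -0.36 ± 0.46 and the common Smad, Smad4, at -0.12 ± 0.12. The Tcf7l2 mean leaned on replicate 1, which read -1.03, while the other arrays lay between -0.28 and 0.055.

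Of the 9 inhibitors measured, Lefty2, a Nodal antagonist and Nodal target, was the only one with an unadjusted limma p under 0.05. It read -0.53, -0.52, -0.24 and -0.074, below 0 on all 4 arrays, with a mean of -0.34 ± 0.22 (limma adjusted p = 0.973). The BMP antagonist Nog averaged -0.197 ± 0.17. Chrd, another BMP antagonist, had the highest mean of all 75 genes at 0.82 ± 1.74, which came from replicate 4 at 3.41, with -0.23, -0.057 and 0.15 on the others.

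The other factors of streak and mesoderm, 26 genes, had a median of 0.0063, with 14 positive. Sp5, a Wnt target and zinc finger factor of the streak, read -0.14, -0.44, -0.45 and -0.67, below 0 on all 4 arrays, with a mean of -0.43 ± 0.22 (limma adjusted p = 0.973). Wnt3 and Sp5 were both least negative on replicate 1 and most negative on replicate 4, and a link between them was not tested. The trophectoderm markers Krt8 and Krt19, given below, were also least negative on replicate 1 and most negative on replicate 4. Nkx2-5, a cardiac homeobox gene, averaged -0.30 ± 0.16 and was negative on each array. Foxa2, shared with the endoderm list below, averaged -0.44 ± 0.47, with -0.80 where shFmr1 was in Cy5 and -0.074 where it was in Cy3.

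Of the 10 surface and signalling genes, Cited1, a transcriptional coregulator, averaged -0.49 ± 0.18, and Cyp26a1, which breaks down retinoic acid, -0.31 ± 0.18. Both were negative on each array. Dll1, a Notch ligand of the presomitic mesoderm, was the gene with an unadjusted limma p under 0.05 that was higher. It read 0.37, 0.40, 0.027 and 0.51, above 0 on all 4 arrays, with a mean of 0.33 ± 0.21 (limma adjusted p = 0.973). Nkx2-5, Cyp26a1 and Chrd were named after their values had been seen.

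**Figure D4:**
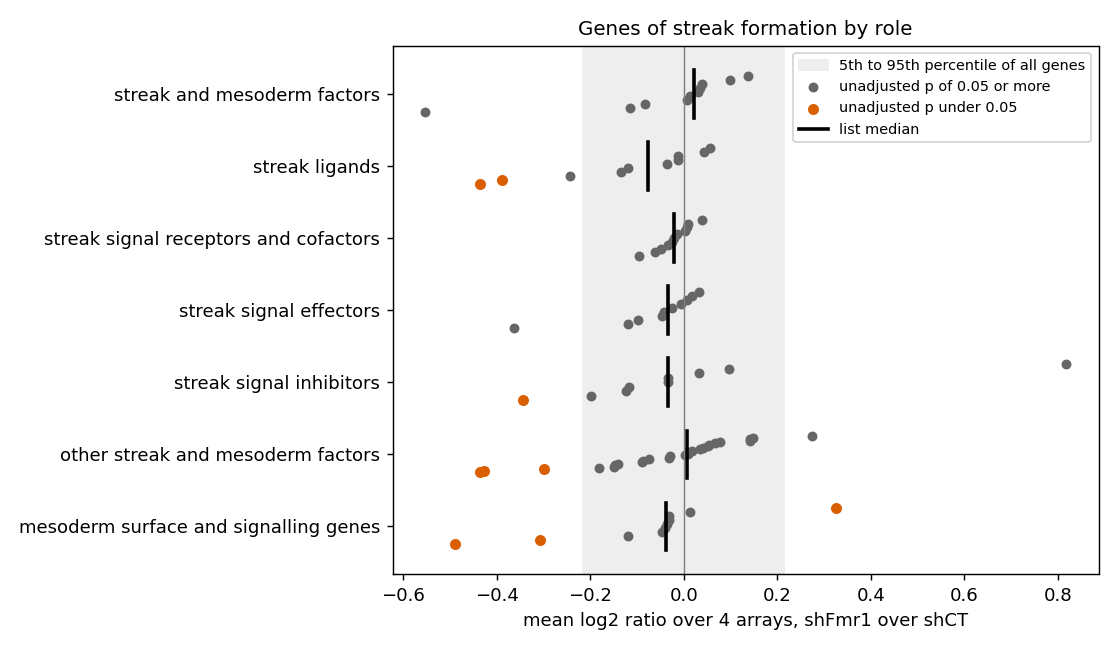
Mean log2 ratio of shFmr1 over shCT over 4 arrays (horizontal axis) for the 10 factors and for the genes around them, by role. Each point is a gene, orange where the unadjusted limma p was under 0.05, black bars are list medians and the grey band is the 5th to 95th percentile of all genes (-0.21 to 0.22). Of the 10 factors 9 lie in the band, and none is orange.

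Markers of other cell types that ES cultures can hold are given for comparison, and their part in the values above was not tested. The marker lists, too, were chosen with earlier results of these data known. Primitive and visceral endoderm markers had 13 of 16 negative, where 50.5% of all genes were. Their median was -0.26, from -0.38 in replicate 1 to -0.020 in replicate 2. Of the 16, 7 were lower at an unadjusted limma p under 0.05, where 2.05% of all genes were. The lowest were Cubn at -1.01 ± 0.96 and Sparc at -0.51 ± 0.52. Their values differed between the dye orientations: Cubn averaged -1.70 with shFmr1 in Cy5 and -0.33 in Cy3, and Sparc -0.91 and -0.12. The dye effect had an unadjusted limma p of 0.018 for Cubn and 0.016 for Sparc, under 0.05 as in 6.49% of all genes. Its limma adjusted p was 0.730 for both. Formative and primed epiblast markers, the state from which the streak arises, had 5 of 8 negative and a median of -0.11, led by Fgf5 at -0.75 ± 0.49 and Pou3f1 at -0.58 ± 0.61. Trophectoderm markers had 7 of 10 negative and a median of -0.15, with Krt8 at -1.16 ± 0.61 and Krt19 at -1.10 ± 0.44.

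Fibroblast markers had 9 of 10 positive and a median of 0.22, from 0.54 in replicate 1 to -0.15 in replicate 4, with Acta2 at 0.50 ± 1.06 and Col1a1 at 0.42 ± 1.34. Of the 10 factors, Eomes, Gsc, Tbx6 and Mesp2 were also highest in replicate 1, and the others were not. A link between these values and the fibroblast markers was not tested. Pluripotency markers of the general list had 4 of 7 positive and a median of 0.087, from 0.10 in replicate 2 to -0.062 in replicate 4. Lin28a averaged 0.26 ± 0.11. Nanog averaged 0.33 ± 0.52, with 0.72 where shFmr1 was in Cy5 and -0.064 where it was in Cy3. The naive list had 5 of 8 negative and a median of -0.024, with Klf5 at -0.15 ± 0.13 and Klf2 at -0.14 ± 0.099. Neuroectoderm markers had 5 of 7 negative and a median of -0.046, with Nes at -0.46 ± 0.49 and Zic1 at 0.38 ± 0.47. In all 7 marker lists 0 genes passed limma's test at adjusted p of 0.05. At an unadjusted limma p under 0.05, besides the endoderm markers, 3 formative and 3 trophectoderm markers were lower. At the same threshold 2 fibroblast and 2 general pluripotency markers were higher. Over all genes 2.05% were lower and 1.71% higher.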

How the data were processed

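The authors deposited 1 log ratio per feature and array, taken here as log2. The largest value, 5.84 in size, exceeds the 4.82 that a log10 ratio of raw 16-bit signals can reach. For the normalization, software and log base, nothing was given in the sources used here. Array medians were 0.0072, -0.012, 0.020 and -0.023 in replicate order, and any centring by the authors is not stated. No intensities were used, and dim features could not be filtered. All 4 arrays were assigned from the labels, and 0 columns were left unmapped. The array titles differ only in their ending, which may stand for places on 1 slide.

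Features were named from a 2016 platform annotation: 33649 had 1 symbol, 56 several and 11509 none. Gene values are means over a gene's features, array by array. Each of 19083 genes was fitted with limma 3.58.1 (R 4.3.3), lmFit and eBayes, with the shFmr1 ratio and a dye term, and p-values were adjusted by Benjamini-Hochberg over all genes. The fit was tested on simulated data.

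The genes, lists and tests were chosen with earlier results of these data known. Genes were named by a rule: the 10 factors and Fmr1, the 2 lowest p-values of each role list, the 2 largest means of each marker list and the 3 nearest genes to the factor with the lowest p-value. The alternatives were no dye term, other feature summaries, centring, scaling, quantile normalization, robust eBayes, a threshold of 0.01 and leaving out each array.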

Additional observations from a re-analysis of the deposited data

Results flagged for a closer look

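The median of the mesoderm surface and signalling genes was -0.18 in replicate 3 and between -0.039 and -0.031 on the other arrays, so 1 array lay apart by Dixon's criterion. This was 1 of 51 results examined, where chance flags about 1 in 20, or 2.55. Its cause was not tested.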

How the results depend on the processing

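Each array holds both RNAs and gives 1 ratio per replicate, so the 2 RNAs of an array were already paired in every fit. Readings as natural logs or log10 were added after seeing the data and scale all values alike. In all 18 settings that give values for single factors, 0 of the 10 passed adjusted p of 0.05 (lowest 0.0860, for Evx1 without replicate 2 and with a dye term, where its ratio was -1.24 and replicate 4 stood alone in its dye orientation). Mesp1, Mesp2 and Tbx6 kept their direction in all of these. Lhx1 reversed with quantile normalization (-0.00254), with 1 feature per gene (-0.0571) and with the features' median (-0.0816), and the cause was not tested. Quantile normalization called 2 genes in all, Fmr1 and Krt19.

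Leaving out 1 array, with or without the dye term, gave 0 to 87 genes called, 0 factors called, 0 to 1 factors with an unadjusted p under 0.05 (3.10% to 5.81% of all genes in the same fits), a median of the factors from -0.0166 to 0.0566 and 4 to 9 genes around the streak lower at an unadjusted p under 0.05 (1.36% to 3.48% of all genes). The ranges were -0.123 to 0.136 for Mixl1, -0.162 to 0.335 for Eomes, -0.0209 to 0.291 for Gsc, -0.130 to 0.149 for Lhx1, -1.24 to 0.206 for Evx1, -0.0456 to 0.105 for Msgn1 and -0.00168 to 0.0742 for Cdx1, all of which changed sign. With the dye term kept, Eomes was -0.136 without replicate 1, and without replicate 4 Evx1 was 0.128 and Lhx1 -0.122. Without a dye term, Mixl1 was -0.0646 without replicate 2 and -0.0266 without replicate 3, and Msgn1 was -0.0250 without replicate 4. Among the fits with a dye term, those that left out replicates 1 to 4 in turn called 25, 87, 10 and 0 genes. The number of arrays limits precision, and signal over background was not analysed here.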
